A study of Rattus norvegicus with 18 samples.

Results

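The genes described here are a set of 10 that carry and regulate the cardiac extracellular matrix, chosen by name: Col1a1, Col1a2, Col3a1, Fn1, Sparc, Dcn, Mmp2, Timp1, Tgfb1 and Ccn2. Each was given as an Ensembl identifier, and the symbols are those given with these identifiers. Of the 10, 9 were among the 37262 genes of the files and all 9 lay above 1 FPKM (fragments scaled to gene length and to library size). No header names the unit, and the values are taken here as FPKM. The identifier for Col1a2, ENSRNOG00000011292, was in none of the files and was dropped by the rule. RNA was measured by rRNA-depleted sequencing of heart tissue in 18 libraries, 6 from WKY rats (Wistar-Kyoto, the normotensive comparison strain), 6 from SHR (spontaneously hypertensive rats) and 6 from SHR given QDG. The design text gives the treatments as NS or QDG, and SHR without QDG are taken here as SHR given NS. The labels expand neither abbreviation, do not say whether WKY also received NS, and give no age, sex, dose or duration. Any effect of NS that WKY did not share therefore cannot be told apart from strain. The labels name neither the chamber sampled nor the animal behind each library. P-values therefore describe variation among libraries, part of which may be technical.

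The extracellular matrix of the heart is made mostly by fibroblasts and surrounds each muscle cell. Fibrillar collagens type I (Col1a1 with Col1a2) and type III (Col3a1) give it tensile strength, fibronectin (Fn1) forms a scaffold on which collagen assembles, and SPARC and decorin (Dcn) steer how collagen fibrils form. MMP2 cleaves matrix proteins, TIMP1 inhibits such proteases, TGF-beta 1 (Tgfb1) is the classic profibrotic growth factor, and Ccn2 (connective tissue growth factor) is a secreted matricellular protein and a known target of TGF-beta and of the mechanically regulated YAP/TEAD transcription factors. Pressure overload is known to bring on cardiac fibrosis, which is why these genes are often read in hypertensive hearts. In bulk tissue, a change in the number of cells that make a transcript and a change in the transcript per cell cannot be told apart.

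The upstream sequences of Ccn2, Timp1 and Sparc, 3 genes with an adjusted p under 0.05 for SHR against WKY (limma, below), are shown first. For Sparc this was lost in 19 of 29 other settings. Tgfb1, which did not pass, also had a sequence, and it is not printed. Of the 9 genes, 4 (Sparc, Timp1, Tgfb1 and Ccn2) had an entry in the RefSeq promoter table, which uses rat assembly GRCr8 of the reference strain and not the SHR or WKY genomes. The 250 bases before the start site are printed 5′ to 3′ on the strand of the gene, and capitals mark GGAATG or its reverse complement CATTCC, the core element bound by TEAD factors. Ccn2 is on chr1:22624615-22624864, minus strand. Timp1 is on chrX:3771123-3771372, minus strand, before a start site that lies 1456 bases inside the annotated span of the gene. Sparc is on chr10:40038817-40039066, minus strand.
Ccn2: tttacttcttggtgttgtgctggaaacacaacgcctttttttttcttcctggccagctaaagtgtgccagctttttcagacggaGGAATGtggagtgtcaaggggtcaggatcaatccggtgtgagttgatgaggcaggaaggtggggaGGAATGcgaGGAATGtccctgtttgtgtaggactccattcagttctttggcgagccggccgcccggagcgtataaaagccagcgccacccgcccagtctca
Timp1: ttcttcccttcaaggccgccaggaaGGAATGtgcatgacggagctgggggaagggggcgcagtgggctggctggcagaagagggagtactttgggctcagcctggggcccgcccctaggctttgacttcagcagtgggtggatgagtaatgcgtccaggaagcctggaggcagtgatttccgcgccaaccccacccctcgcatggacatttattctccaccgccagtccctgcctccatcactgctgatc
Sparc: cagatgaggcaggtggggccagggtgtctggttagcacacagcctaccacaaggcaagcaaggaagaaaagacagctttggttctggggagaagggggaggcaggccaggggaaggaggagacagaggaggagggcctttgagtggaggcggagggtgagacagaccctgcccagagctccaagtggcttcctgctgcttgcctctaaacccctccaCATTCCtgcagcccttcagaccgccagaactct

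Of 33469 promoter windows of this length, 12.1% held GGAATG on either strand and 0.0807% (27 windows) held it 3 times or more. The Ccn2 window was among these 27, with matches starting 166, 101 and 92 bases before the start site. Timp1 and Sparc had 1 match each, and Tgfb1, whose values are given below, had 0. CAGAC, the core letters of a SMAD element through which TGF-beta signals, was present in 42.9% of windows, and 3 times or more in 2.54%. It occurred once in the Ccn2 window, 174 bases before the start site, where it ends 3 bases before the first GGAATG, and 3 times in that of Sparc, with 0 matches for Timp1 and Tgfb1. TATAAA, the TATA box, was in 12.9% of windows and among these 4 genes in that of Ccn2 alone, 31 bases before the start site. The other motifs searched on both strands were TGANTCA (AP-1, in 6.34% of windows), GGGCGG (GC box, 30.5%) and CCAAT (34.0%). TGANTCA and CCAAT had 0 matches in the 4 windows, and GGGCGG had 2 in Ccn2 and 1 in Timp1. These matches describe letters in the windows and not bound sites.

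In the WKY heart the 9 transcripts spanned a wide range of levels. Sparc (ENSRNOG00000012840) was the most abundant at 354 ± 32.4 FPKM, followed by Dcn (ENSRNOG00000004554) at 273 ± 27.2, Col3a1 (ENSRNOG00000003357) at 187 ± 32.2 and Col1a1 (ENSRNOG00000003897) at 109 ± 28.2 (SD, n = 6 each). Sparc ranked 129th and Dcn 166th of the 17397 genes tested. Mmp2 (ENSRNOG00000016695) stood at 42.0 ± 2.71 FPKM, Ccn2 (ENSRNOG00000015036) at 22.7 ± 3.50, Tgfb1 (ENSRNOG00000020652) at 13.8 ± 1.28, Fn1 (ENSRNOG00000014288) at 9.20 ± 0.896 and Timp1 (ENSRNOG00000010208) at 2.36 ± 0.488 (SD, n = 6 each). Timp1 was thus the rarest, above only 28.2% of the tested genes. Neighbours in this order overlapped between libraries for Sparc and Dcn and for Col3a1 and Col1a1, and in each of these pairs the first was above the second in 6 of 6 libraries. If the values are FPKM, as taken here, they are scaled to gene length and these levels can be compared between genes. No header names the unit.

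The order was different in SHR. Ccn2, at 63.5 ± 19.3 FPKM, was above Mmp2, at 46.9 ± 8.69, in 5 of 6 libraries, and Fn1, at 16.5 ± 8.59, was above Tgfb1, at 14.3 ± 2.73, in 4 of 6 (SD, n = 6 each). The ranges of both pairs overlapped. Without SHR replicate 5 the mean of Fn1 was 13.05 FPKM and that of Tgfb1 13.21, the order seen in WKY. Timp1 had reached 13.0 ± 9.19 FPKM (SD, n = 6), which placed it above 75.6% of tested genes, with a range overlapping that of Tgfb1. Its mean was 9.39 FPKM without SHR replicate 5. In SHR given QDG, Mmp2 at 44.2 ± 5.60 FPKM was again above Ccn2 at 38.1 ± 6.16 in 5 of 6 libraries (SD, n = 6 each). The order of means differed for collagen and decorin too. Col3a1 at 229 ± 55.6 FPKM and Dcn at 212 ± 30.2 overlapped, with Col3a1 above Dcn in 3 of 6 libraries (SD, n = 6 each).

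**Figure D1:**
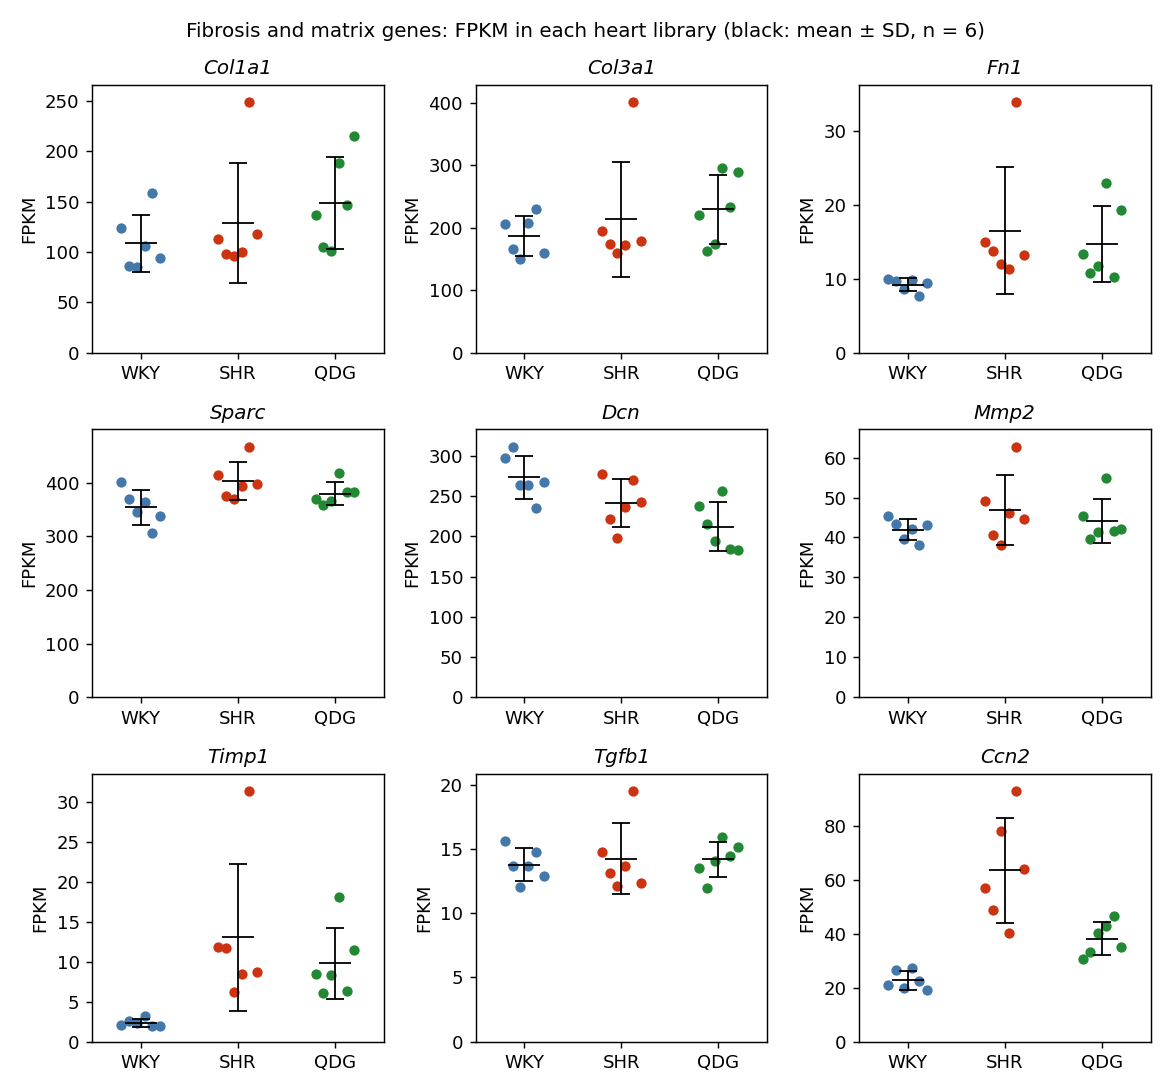
FPKM of each of the 9 genes (vertical axes, each from 0) in every library, with WKY, SHR without QDG (SHR) and QDG-treated SHR (QDG) side by side. Points are libraries and black marks are the mean ± SD of 6. Timp1, Fn1 and Ccn2 do not overlap between WKY and SHR, and SHR replicate 5 is the highest SHR library for 8 of the 9 genes.

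Some libraries need to be named before the comparisons. SHR replicate 5 was the highest of the 6 SHR libraries for 8 of the 9 genes, and for 27.6% of all tested genes. Its Col1a1 was 248 FPKM where the other 5 SHR libraries lay between 95.8 and 117, and its Col3a1 was 401 where the others lay between 159 and 195. The sum of FPKM in this library, 623190, was within the range of the 18 libraries, 598626 to 676288. QDG replicate 4 was the highest of its group for 7 of the 9 genes, and for 33.7% of tested genes. Over the 18 libraries this share of tested genes ran from 6.9% to 33.7%. It was 27.1% for WKY replicate 1 and 26.0% for WKY replicate 2, near that of SHR replicate 5. WKY replicate 5 had the largest sum of FPKM of the 18 libraries. It was the lowest of its group for 4 of the 9 genes and the highest for 2. Absolute depth is unknown. Values without SHR replicate 5 are given below beside the results that it moved most. Whether these libraries differed in tissue sampled, cell make-up or RNA quality was not tested. The files pair no identifiers with symbols, so neither cell type markers outside the set nor heart muscle markers could be looked up.

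The first comparison asked how the matrix genes differed between the hypertensive and the normotensive heart. SHR hearts carried more Timp1, the protease inhibitor, more Ccn2, the matricellular growth factor, more Fn1 and slightly more Sparc, while the fibrillar collagens, Mmp2, Tgfb1 and Dcn did not pass the test. Of the 9 genes, 4 were called at an adjusted p under 0.05 (limma on log2(FPKM + 1), Benjamini-Hochberg over 17397 genes), all 4 higher in SHR. Over all tested genes 24.8% were called, 12.2% higher and 12.6% lower. The median difference of the 9 genes was 0.19 on the log2(FPKM + 1) scale, against -0.0094 over all genes. Without SHR replicate 5 these medians were 0.055 and -0.015. For 3 of the 9 genes (Timp1, Ccn2 and Fn1) the SHR range lay wholly outside that of WKY, as it did for 12.5% of all genes. The count of 4 fell to 2 (Timp1 and Ccn2) without WKY replicate 3, WKY replicate 4, WKY replicate 5, WKY replicate 6 or SHR replicate 1, and also with no filter on low values. It was 3 (Timp1, Ccn2 and Fn1) without SHR replicate 5.

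Timp1 had the largest difference of the 9. Its WKY values ran from 1.91 to 3.20 FPKM with a median of 2.25, and its SHR values from 6.22 to 31.3 with a median of 10.2. Every SHR library was above every WKY library. The ratio of group means was 5.52, and the difference on the log2(FPKM + 1) scale was 1.89 (SE 0.30, limma adjusted p = 0.000168), the 53rd largest in size of 17397 genes. Because Timp1 is low in WKY this scale understates the change, and the difference became 2.27 with a pseudocount of 0.01. SHR replicate 5 held the 31.3 FPKM, and the next SHR library 11.8. Without it the difference was 1.61 (limma adjusted p = 4.33e-05).

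Ccn2 was the second. It lay between 19.2 and 27.5 FPKM in WKY, with a median of 21.6, and between 40.2 and 92.7 in SHR, with a median of 60.5. The groups did not overlap, and the SHR libraries were widely spread, with SHR replicate 4 the lowest and SHR replicate 5 the highest. The ratio of means was 2.79 and the difference on the log2(FPKM + 1) scale 1.40 (SE 0.17, limma adjusted p = 5.12e-06). Without SHR replicate 5 it was 1.28 (limma adjusted p = 5.65e-06). The coefficient of variation in SHR was 70.5% for Timp1 and 30.4% for Ccn2, and without SHR replicate 5 it was 25.2% for both.

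Fn1, fibronectin, ran from 7.63 to 9.99 FPKM in WKY with a median of 9.55, and from 11.3 to 33.8 in SHR with a median of 13.5. All 6 SHR libraries exceeded all WKY libraries, but 5 of the 6 stood between 11.3 and 14.9 and only SHR replicate 5 was far above. The difference was 0.68 on the log2(FPKM + 1) scale (SE 0.23, limma adjusted p = 0.0371), and without that library it was 0.46 (adjusted p = 0.0458). Of 29 other settings 8 ended the call, and the adjusted p spanned 0.0106 to 0.0766. The call was lost without WKY replicate 2, 3, 4, 5 or 6, or SHR replicate 1. Sparc, a collagen-binding matricellular protein, differed by far less. It ran from 306 to 401 FPKM in WKY (median 355) and from 370 to 467 in SHR (median 396), so that the groups overlapped, with 2 of 6 SHR libraries above all of WKY and 6 of 6 above the WKY mean. Its difference of 0.19 (SE 0.07, limma adjusted p = 0.0460) was lost in 19 of 29 settings. These include the fits without WKY replicate 3, 4, 5 or 6, SHR replicate 1, 4 or 6, QDG replicate 1, 2, 3, 5 or 6, and SHR replicate 5 (0.14, adjusted p = 0.110).

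The fibrillar collagens showed no difference that the test could separate from the spread. Col1a1 ran from 85.0 to 158 FPKM in WKY (median 99.6) and from 95.8 to 248 in SHR (median 106). The difference of 0.19 (SE 0.24, limma adjusted p = 0.626) had a 95% confidence interval from 0.80-fold to 1.62-fold, a span that holds both a fall and a rise. Col3a1 ran from 150 to 230 FPKM in WKY (median 186) and from 159 to 401 in SHR (median 177), a difference of 0.13 (SE 0.21, adjusted p = 0.696; interval 0.81-fold to 1.48-fold). Both differences turned slightly negative without SHR replicate 5, at -0.021 for Col1a1 and -0.068 for Col3a1.

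Tgfb1, the growth factor often placed upstream of the other genes, was at 12.05 to 15.6 FPKM in WKY and 12.1 to 19.5 in SHR, with medians of 13.7 and 13.4. The groups overlapped almost wholly. The difference of 0.032 (SE 0.09, limma adjusted p = 0.842) had an interval from 0.89-fold to 1.17-fold, and its sign turned to -0.056 without SHR replicate 5 and to -0.0029 without WKY replicate 3. Mmp2, a gelatin-cleaving protease, was at 38.0 to 45.4 FPKM in WKY and 38.2 to 62.7 in SHR, a difference of 0.14 (SE 0.10, adjusted p = 0.319; interval 0.96-fold to 1.27-fold), which was 0.055 without SHR replicate 5. Dcn, the small proteoglycan that binds collagen and TGF-beta, was the only gene of the 9 with a lower mean in SHR when all libraries are kept. It ran from 235 to 311 FPKM in WKY and from 197 to 277 in SHR, with 5 of 6 SHR libraries below the WKY mean (difference -0.18, SE 0.10, adjusted p = 0.178). Without SHR replicate 5 the SHR means of Col1a1 (104.8 FPKM), Col3a1 (176.2) and Tgfb1 (13.21) were also below those of WKY (108.7, 186.6 and 13.78).

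**Figure D2:**
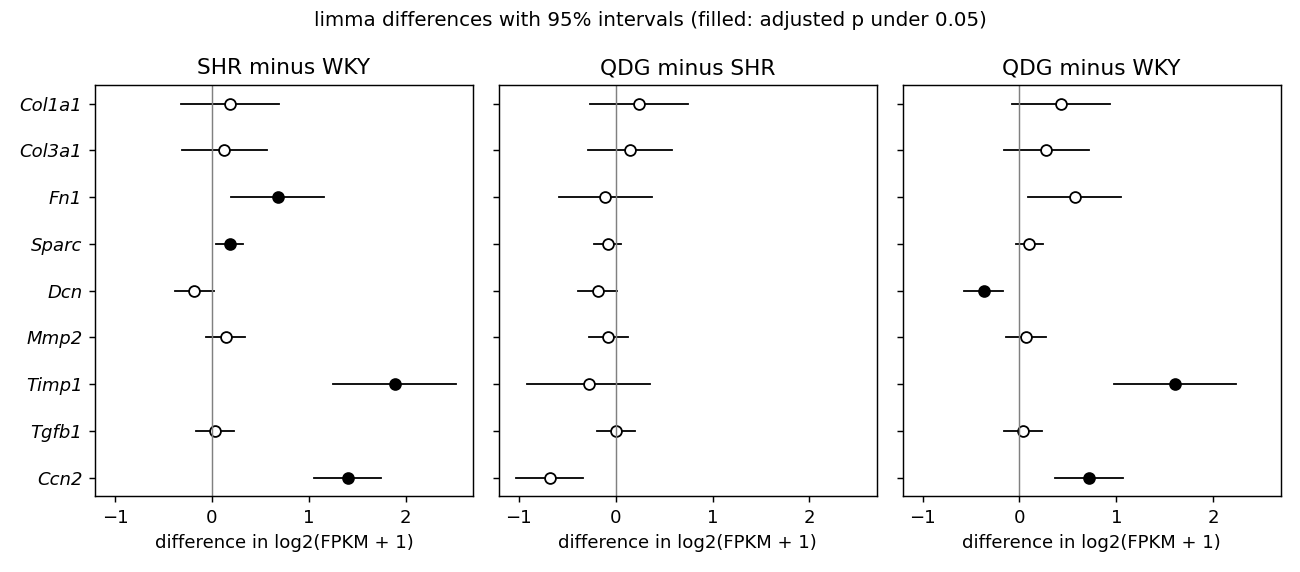
Differences in log2(FPKM + 1) between groups (horizontal axes) for the 9 genes, from limma over all tested genes. Points are estimates, lines are 95% confidence intervals, and filled points have an adjusted p under 0.05: Fn1, Sparc, Timp1 and Ccn2 for SHR minus WKY, 0 genes for QDG minus SHR, and Dcn, Timp1 and Ccn2 for QDG minus WKY.

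The second comparison asked whether QDG changed these genes in the SHR heart. None of the 9 was called by limma, against 0.293% of all tested genes (0.207% higher and 0.0862% lower). At an unadjusted p under 0.05 there was 1 of the 9, Ccn2, and 1817 of the 17397 genes. The values of the groups overlapped for all 9, where they did not overlap for 1.15% of all genes. The median difference of the 9 was -0.0825 on the log2(FPKM + 1) scale, against 0.017 over all genes. Without SHR replicate 5 the medians were 0.011 and 0.024, so the sign for the 9 genes rests on that library.

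Ccn2 came closest to a call. It ran from 40.2 to 92.7 FPKM in SHR (median 60.5) and from 30.8 to 46.7 after QDG (median 37.6). All 6 treated libraries were below the SHR mean and median, and 3 of them were below every SHR library. The difference was -0.68 (SE 0.17, unadjusted p = 0.000644, limma adjusted p = 0.0980), the 112th smallest p of the 17397 genes, with an interval from 0.49-fold to 0.79-fold before adjustment. Only SHR replicate 4, at 40.2 FPKM, reached down into the treated range. Without that library the difference was -0.80 and passed the test (adjusted p = 0.0352), and over all 29 settings the adjusted p ran from 0.0352 to 0.217, so the call depends on this library.

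For the other 8 genes the intervals show how large a change could have been missed. Timp1 ran from 6.22 to 31.3 FPKM in SHR and from 6.09 to 18.04 after QDG, with medians of 10.2 and 8.36. Its difference of -0.28 (SE 0.30, limma adjusted p = 0.806) had an interval from 0.53-fold to 1.28-fold and was -0.0016 without SHR replicate 5. Fn1, at medians of 13.5 and 12.6 FPKM, differed by -0.11 (SE 0.23, adjusted p = 0.916; interval 0.66-fold to 1.29-fold), which became 0.11 without SHR replicate 5. The collagens had higher means after QDG but wide intervals. Col1a1 had medians of 106 and 142 FPKM (difference 0.24, SE 0.24, adjusted p = 0.786; interval 0.83-fold to 1.68-fold), and without SHR replicate 5 the difference was 0.45 (adjusted p = 0.396). Col3a1 had medians of 177 and 227 FPKM (difference 0.15, SE 0.21, adjusted p = 0.861; interval 0.82-fold to 1.4985-fold), and without that library 0.35 (adjusted p = 0.394).

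The narrowest intervals belonged to Sparc, Tgfb1, Dcn and Mmp2. Sparc differed by -0.0825 (SE 0.07, limma adjusted p = 0.719; interval 0.86-fold to 1.04-fold), Mmp2 by -0.0745 (SE 0.10, adjusted p = 0.848; 0.82-fold to 1.09-fold) and Tgfb1 by 0.0055 (SE 0.09, adjusted p = 0.992; 0.88-fold to 1.15-fold). For Tgfb1 the sign was not fixed, at -0.016 after median centring and 0.094 without SHR replicate 5. Without that library Mmp2 was at 0.011 and Sparc at -0.039. Dcn ran from 197 to 277 FPKM in SHR and from 184 to 257 after QDG, with 5 of 6 treated libraries below the SHR mean (difference -0.19, SE 0.10, adjusted p = 0.531; interval 0.76-fold to 1.01-fold).

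The third comparison set QDG-treated SHR against WKY, and so asked which of the genes still stood apart from the normotensive heart under treatment. It shares its WKY libraries with the first comparison and its treated libraries with the second. Of the 9 genes 3 were called (limma, adjusted p under 0.05), 2 higher (Timp1 and Ccn2) and 1 lower (Dcn). Over all tested genes 20.9% were called, 11.7% higher and 9.2% lower. The values did not overlap for 3 of the 9 (Timp1, Ccn2 and Fn1) and for 10.4% of all genes. The median difference of the 9 was 0.28, against 0.010 over all genes.

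Timp1 was at 6.09 to 18.04 FPKM after QDG and at 1.91 to 3.20 in WKY, without overlap, a difference of 1.61 (SE 0.30, limma adjusted p = 0.000798) beside 1.89 for SHR without QDG. When SHR replicate 5 was left out, the difference for SHR without QDG was also 1.61. Ccn2 was at 30.8 to 46.7 FPKM against 19.2 to 27.5, again without overlap, a difference of 0.72 (SE 0.17, adjusted p = 0.00394) beside 1.40 for SHR without QDG. In ratios of means, Ccn2 stood at 1.68 times WKY after QDG and at 2.79 times WKY without it. Neither Timp1 nor Ccn2 was called for QDG against SHR. Fn1, at 10.3 to 22.9 FPKM after QDG, was above WKY in 6 of 6 libraries, but its difference of 0.57 did not pass (SE 0.23, adjusted p = 0.0886). It passed in 3 of 29 settings, with adjusted p of 0.0118 without SHR replicate 5, a library that enters this fit only through the shared estimate of spread.

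Dcn was the gene with lower levels under treatment than in WKY. Its treated values ran from 184 to 257 FPKM with a median of 205, and its WKY values from 235 to 311 with a median of 266. The groups overlapped, but 4 of 6 treated libraries lay below every WKY library and 6 of 6 below the WKY mean. The difference of -0.37 (SE 0.10, limma adjusted p = 0.00849) kept its call in 29 of 29 settings, with adjusted p from 0.00204 to 0.0340. Sparc (difference 0.10, adjusted p = 0.313), Mmp2 (0.066, adjusted p = 0.704), Tgfb1 (0.038, adjusted p = 0.833), Col3a1 (0.28, adjusted p = 0.394) and Col1a1 (0.43, SE 0.24, adjusted p = 0.245) did not pass. Col1a1 had all 6 treated libraries above the WKY median, and 2 of the 6 above every WKY library.

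The balance of protease and inhibitor transcripts was followed by a ratio within each library, which does not depend on how libraries were scaled. The Mmp2 to Timp1 ratio ran from 13.2 to 22.6 in WKY (median 18.02), from 2.003 to 6.14 in SHR (median 4.63) and from 3.04 to 6.51 after QDG (median 5.19). Both SHR groups lay wholly below WKY, and they overlapped each other. The mean log2 ratio was lower by 2.13 in SHR than in WKY, at 2.04 ± 0.588 against 4.17 ± 0.287 (SD, n = 6 each; two-sided exact permutation p = 0.00216, adjusted 0.00649 over 6 ratio tests). This p is the least that 6 libraries against 6 allow. Without SHR replicate 5 the difference was -1.92 (exact permutation, adjusted p = 0.0130). The log2 ratio was lower by 1.90 after QDG than in WKY (exact permutation p = 0.00216, adjusted 0.00649). Between the SHR groups the log2 ratio differed by 0.23 (exact permutation p = 0.485, adjusted 0.485), and by 0.0185 without SHR replicate 5 (exact permutation, adjusted p = 0.944). Mmp2 alone passed no comparison between groups, while Timp1 alone did not overlap between WKY and either SHR group. The ratio therefore largely restates the Timp1 difference and is not a separate result.

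The ratio of the collagen types was steadier. Col1a1 to Col3a1 ran from 0.508 to 0.687 in WKY, from 0.561 to 0.656 in SHR and from 0.578 to 0.741 after QDG, with medians of 0.576, 0.590 and 0.631. No comparison passed: the differences in log2 ratio were 0.057 for SHR against WKY (exact permutation p = 0.455, adjusted 0.485), 0.09 for QDG against SHR (p = 0.119, adjusted 0.179) and 0.15 for QDG against WKY (exact permutation p = 0.0952, adjusted 0.179). Without WKY replicate 5, the WKY library with the highest ratio, the last became 0.20 (exact permutation, adjusted p = 0.0260). QDG replicate 6 had the highest ratio of the 18, at 0.741, where the other treated libraries lay between 0.578 and 0.639.

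**Figure D3:**
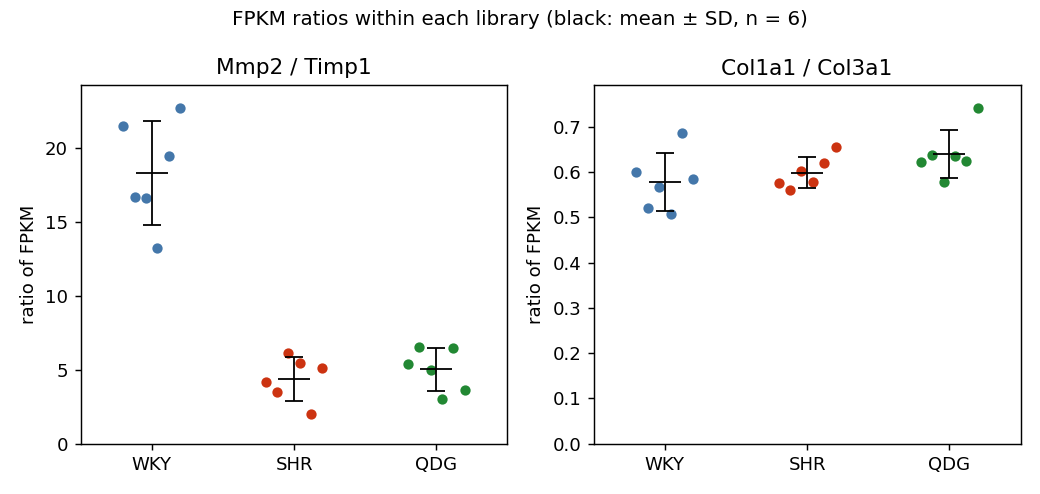
Ratio of Mmp2 to Timp1 FPKM (left) and of Col1a1 to Col3a1 FPKM (right) in each library of the 3 groups. Points are libraries and black marks are the mean ± SD of 6. The Mmp2 to Timp1 ratio is 13.2 or higher in every WKY library and 6.51 or lower in every SHR library of either group.

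Apart from group differences, the genes also varied together from library to library within groups. Each value of log2(FPKM + 1) was set against its group mean, and the 36 pairs of genes were correlated over the 18 libraries, with values permuted within groups and p adjusted over the 36 pairs. Pearson r was above 0 for all 36 pairs, with a median of 0.69. Without SHR replicate 5 the median was 0.53 and r was below 0 for 3 pairs (Col1a1 with Dcn, and Ccn2 with Dcn and with Mmp2). Spearman rho was below 0 for 1 pair, Dcn and Ccn2, and 21 pairs passed by both Pearson and Spearman coefficients. No p is given for r without SHR replicate 5. Pairs of other tested genes were not counted in this way. Whether the genes of the set varied together more than other genes was therefore not tested. All 18 libraries share their scaling to library totals. SHR replicate 5 and QDG replicate 4 were the highest of their groups for most genes of the set. They were also the highest for 27.6% and 33.7% of all tested genes. For these reasons r is also given without the 2 libraries farthest from the median of the first gene.

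The closest pair was Col1a1 and Col3a1, the collagens that assemble into the same tissue fibrils. Their r was 0.967 (permutation p = 1e-05, the smallest 100000 permutations can give, adjusted 0.00018) and rho 0.959 (permutation p = 1e-05, adjusted 0.00036), with r = 0.939 without SHR replicate 5 and QDG replicate 6. Fn1 and Timp1 followed, with r = 0.941 (permutation p = 3e-05, adjusted 0.00027), rho = 0.872 (permutation p = 4e-05, adjusted 0.0006) and r = 0.803 without SHR replicate 5 and QDG replicate 4. Tgfb1 went with Col3a1, although neither passed a test between groups: r was 0.909 (permutation p = 2e-05, adjusted 0.00024), rho 0.853 (permutation p = 5e-05, adjusted 0.0006), and r = 0.794 without the same 2 libraries. Among the other pairs, values are given for Sparc and Mmp2 (r = 0.843, permutation adjusted p = 0.00018, rho = 0.843, adjusted p = 0.00063; r = 0.787 without WKY replicate 1 and SHR replicate 5) and Dcn and Mmp2 (r = 0.782, permutation adjusted p = 0.000792, rho = 0.787, adjusted p = 0.0018; r = 0.667 without SHR replicate 3 and QDG replicate 4). The fall was larger for most of the 21 pairs that passed by both coefficients. Without the 2 farthest libraries their r lay between 0.249 (Col3a1 and Sparc) and 0.539 (Col3a1 and Fn1). Without SHR replicate 5 and QDG replicate 4, r fell from 0.833 to 0.486 for Mmp2 and Timp1. For Fn1 and Mmp2 it fell from 0.832 to 0.484 without the same 2 libraries. For Col3a1 and Mmp2 r was 0.721 (permutation p = 0.00803, adjusted 0.0161; rho = 0.618, permutation p = 0.00804, adjusted 0.0193) and 0.317 without SHR replicate 5 and QDG replicate 4.

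Ccn2 did not pass with any other gene of the set. Its r ran from 0.014 with Dcn to 0.487 with Col3a1 (permutation p = 0.0973, adjusted 0.135; rho = 0.366, permutation p = 0.157, adjusted 0.209). With Timp1, the other gene that differed most between the strains, r was 0.406 (permutation p = 0.215, adjusted 0.241) and rho 0.216 (permutation p = 0.446, adjusted 0.508), and r was -0.075 without SHR replicate 5 and QDG replicate 4. SHR replicate 5 had the most of both genes in SHR, while SHR replicate 3 had the least Timp1 of SHR (6.22 FPKM) and the second most Ccn2 (78.1 FPKM). Whether the coefficients of Ccn2 differ from those of the other genes was not tested.

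**Figure D4:**
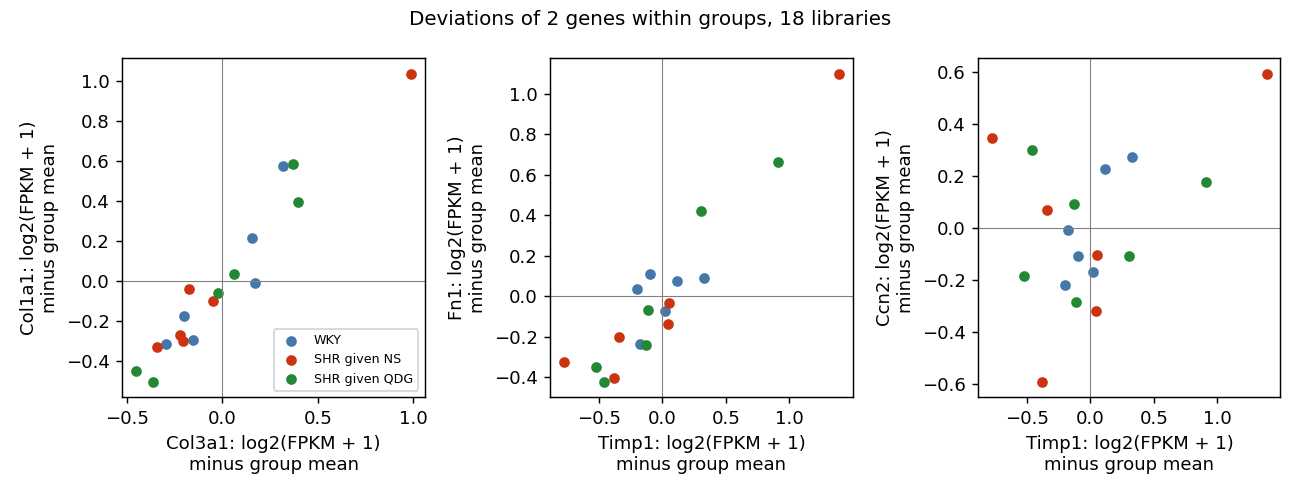
Deviations from the group mean in log2(FPKM + 1) for 3 pairs of genes, 1 point per library, coloured by group. Col1a1 follows Col3a1 (r = 0.967) and Fn1 follows Timp1 (r = 0.941), while Ccn2 against Timp1 is scattered (r = 0.406); the point at the far right of each panel is SHR replicate 5.

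Seen by library, SHR replicate 5 deviated from the SHR mean by 1.39 in Timp1, 1.10 in Fn1, 1.03 in Col1a1 and 0.99 in Col3a1 on the log2(FPKM + 1) scale, and by 0.18 in Dcn and 0.22 in Sparc. The genes thus deviated by unequal amounts in it. QDG replicate 4 had a like order for Timp1 (0.91), Fn1 (0.66) and the collagens (0.39 in Col1a1 and 0.40 in Col3a1). The order of the other genes was not the same. Ccn2 deviated by 0.59 in SHR replicate 5, above Mmp2 (0.43) and Dcn. In QDG replicate 4 it deviated by 0.18, below Mmp2 (0.32) and Dcn (0.29). In WKY, replicate 5 was highest for Col1a1 and Col3a1 and lowest for Fn1, Sparc, Dcn and Mmp2, so the collagens and these genes deviated in opposite directions there.

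**Figure D5:**
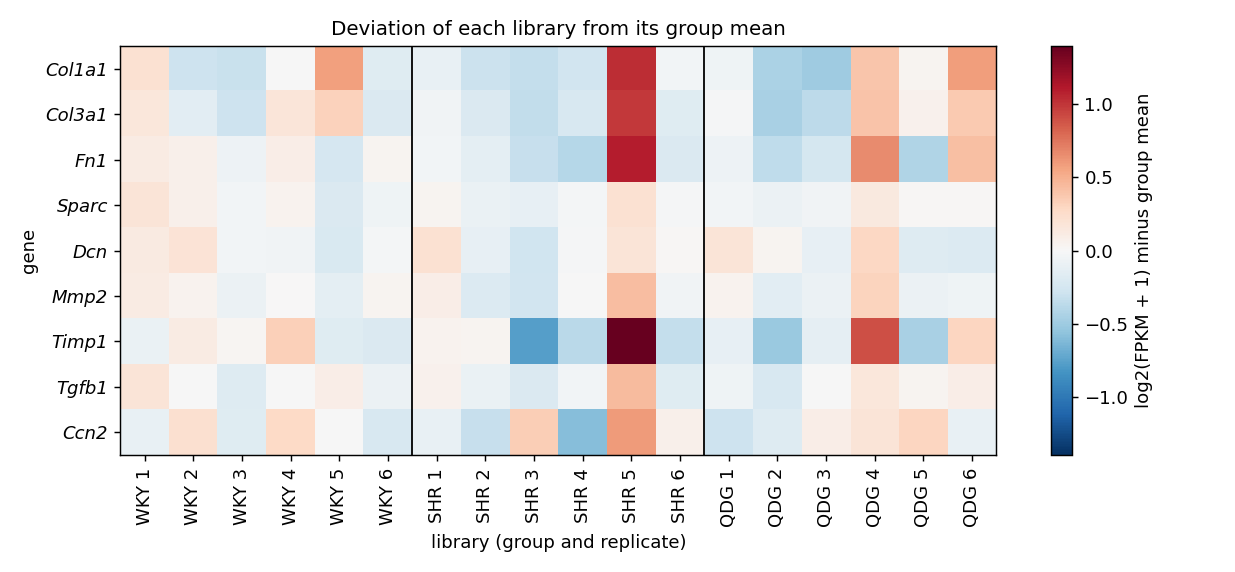
Deviation of each library (columns) from the mean of its group in log2(FPKM + 1) for the 9 genes (rows), with red above and blue below the mean and lines between the groups. The strongest red is in SHR replicate 5, where Timp1 deviates by 1.39 and Fn1 by 1.10, and QDG replicate 4 shows the same genes at 0.91 and 0.66.

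By the same measure of likeness over the 18 libraries, other genes of the table were searched for those most like Col1a1, Col3a1 and Timp1. The closest to Col1a1 was ENSRNOG00000052925 with r = 0.994, followed by ENSRNOG00000008749 with r = 0.963. ENSRNOG00000008749 was also the closest to Col3a1, with r = 0.976, followed by ENSRNOG00000003736 with r = 0.961. For Timp1 they were ENSRNOG00000026415 with r = 0.925 and ENSRNOG00000055962 with r = 0.922. They were picked as the highest over all tested genes outside the set, so they are given as a description with no p, and the sources used here pair none of the identifiers with a symbol.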

How the data were processed

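Gene expression in rat heart was read from 18 deposited tables, 1 per library, 6 libraries per group. Total RNA (Trizol) was depleted of rRNA before library construction with a NEB kit, per the labels' protocols. The deposited values are taken as FPKM, scaled by the authors to gene length and library size; no header names the unit, and TPM with genes removed is possible. The submitters' processing notes name limma. Aligner, counter, build and strand setting were not given in the sources used here. Overlapping genes cannot be told apart. The genes and lists were chosen with earlier results of these data known. Beyond the genes of the set, the 9 pathway lists and the cell type markers were not tested, because the reference of 47357 gene entries (GRCr8) holds 0 Ensembl identifiers. The planned ratio of Col1a1 to Col1a2 could not be formed. The genes named are all 9 of the set and, for 3 of them, the 2 most similar genes.

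A gene was tested if 6 or more libraries reached 1 FPKM (17397 genes). Values entered limma 3.58.1 (R 4.3.3) as log2(FPKM + 1) (intensity trend, robust moderation, statmod 1.5.0), all 18 libraries in one fit, two-sided, with Benjamini-Hochberg adjustment over these genes and a threshold of 0.05. Fold intervals are on the FPKM + 1 scale at 95%. The fit was tested on simulated data. Permutation tests for ratios and correlations were run with scipy 1.17.1 (Python 3.11.15). Alternatives were median centring, quantile normalization, no trend, sample weights, other filters and pseudocounts, the 12 compared libraries alone, a replicate block and each library left out. SHR replicate 5 and QDG replicate 4 left out together was added after seeing the data.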

Additional observations from a re-analysis of the deposited data

Results flagged for a closer look

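SHR replicate 5 stood far above the other 5 SHR libraries for 5 of the 9 genes: Col1a1 at 248 FPKM (others 95.8 to 117), Col3a1 at 401 (159 to 195), Fn1 at 33.8 (11.3 to 14.9), Timp1 at 31.3 (6.22 to 11.8) and Tgfb1 at 19.5 (12.1 to 14.8). The Col1a1 to Col3a1 ratio of QDG replicate 6, 0.741, was far above the other treated libraries (0.578 to 0.639). Of 33 groups of 6 values examined, 6 held such a library, where chance gives about 1 in 20 if values are normally distributed. Over all tested genes the same rule marked a library in more than 1 in 20 genes in every group, so that rate is too low a baseline here. The genes vary together, so the 5 from SHR replicate 5 are not independent. Over all 17397 tested genes, SHR replicate 5 stood apart from its group in 448, and the other SHR libraries in 107 to 231. WKY replicate 5 stood apart in more genes, 685, and QDG replicate 4 in 446.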

How the results depend on the processing

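Of 203 alternative fold changes of genes called in a comparison, 0 reversed and 27 lost the call, 19 for Sparc and 8 for Fn1 in SHR against WKY. Some settings change only the filter, the estimate of spread, the replicate block or libraries of the group not compared. These leave the difference itself as it was, so its sign could not reverse there and only the call could change. Without a filter on low values 2 of the 9 genes were called for SHR against WKY, and leaving out 1 library gave 2 to 4 for that comparison, 0 to 1 for QDG against SHR. The count of all genes called for QDG against SHR, 51, was 77 after median centring, 79 after quantile normalization, 30 without a filter, 104 under sample weights, 13 without SHR replicate 5 and QDG replicate 4 together (fewer libraries), and 28 to 69 leaving out 1 library (33 and 28 when SHR replicate 4 or 6 was left out, and 32, 31 and 30 for QDG replicate 2, 3 or 6); the cause was otherwise not tested.

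Sign changes were limited to genes that were not called. Leaving out 1 library gave, for SHR against WKY, -0.021 to 0.30 for Col1a1, -0.068 to 0.20 for Col3a1 and -0.056 to 0.073 for Tgfb1. The values of -0.021, -0.068 and -0.056 came without SHR replicate 5. They were the same without SHR replicate 5 and QDG replicate 4 together, because a QDG library does not enter this difference. For QDG against SHR, leaving out 1 library gave -0.24 to 0.11 for Fn1, -0.14 to 0.011 for Mmp2 and -0.035 to 0.094 for Tgfb1, which was -0.016 with median centring and -0.0013 with quantile normalization. The Col1a1 to Col3a1 log2 ratio for QDG against WKY ran from 0.11 to 0.20 (0.20, adjusted p = 0.0260, without WKY replicate 5).

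Same-numbered libraries showed little pairing (correlations of -0.057 to 0.19, with 5 of 18 libraries matching their own number best). The highest correlation of each comparison was that of replicate 5: 0.158 for SHR against WKY, 0.126 for QDG against SHR and 0.188 for QDG against WKY. A replicate block left 2 of the 9 genes called for SHR against WKY (Timp1 and Ccn2), 0 for QDG against SHR and 3 for QDG against WKY. In paired tests the Mmp2 to Timp1 log2 ratio differed by the same -2.13 and -1.90 but missed the threshold after adjustment (exact adjusted p = 0.0938), as 6 pairs cannot give p below 0.0313. The number of libraries limits precision, and read depth is unknown.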
